A study of Mus musculus with 6 samples.

Results

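Gbp8, Gbp11, Ifi202b, Ifi205, Ifi208, Ifi213 and Mndal are 7 interferon-inducible mouse genes, taken by symbol from the 332 genes of the deposited table. They comprise 2 guanylate-binding protein (Gbp) genes and 5 genes of the Ifi200 family. Their levels were compared between the livers of 3 male mice of the outbred Kunming stock given gigantol by mouth at 10 mg/kg and those of 3 male Kunming mice given the same volume of vehicle. All mice were 6 to 8 weeks old and weighed 20 to 28 g, and the livers were taken 4 h after dosing. Gigantol is a bibenzyl of Dendrobium orchids that the series title names as an agonist of PPARα and PPARγ, and the comparison addresses liver transcript levels after 1 oral dose. The table holds CPM values (read counts scaled to a common library size) for each of the 6 livers, and its rows are those the authors listed for this same comparison, all with a log2 fold change of 1.00 or more in either direction and none with an unadjusted p above 0.0499. All 7 genes were chosen from that list with their values known. Every group difference given for them is therefore a description of these livers and supports nothing beyond them.

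Interferons bind receptors on the cell surface and signal through Janus kinases to STAT and IRF transcription factors, which bind 2 kinds of DNA element, the interferon-stimulated response element (ISRE) and the gamma-activated site (GAS). Among the genes so induced, the guanylate-binding proteins are large GTPases that assemble on the membranes of intracellular pathogens and their vacuoles. The Ifi200 proteins, also called the PYHIN family, carry HIN domains that bind DNA, in most members together with a pyrin domain, and include cytosolic DNA sensors such as Aim2. In liver both families are made by resident and infiltrating immune cells as well as by hepatocytes exposed to interferon.

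The start-site sequences of the Ifi200 genes are shown first. In these sequences 4 of the 5 genes share an element that the fifth, Ifi202b, lacks. Any link between the sequences and the levels in the livers was not tested. The RefSeq promoter table (build GRCm38.p6) held windows for 5 of the 7 genes, each from 250 bases before to 50 bases after an annotated start, and none for Gbp8 or Gbp11. The windows are Ifi205 at chr1:174031706-174032005 on the minus strand, Ifi208 at chr1:173673415-173673714 on the plus strand, Ifi213 at chr1:173599223-173599522 on the minus strand, the more upstream of 2 Mndal windows at chr1:173880138-173880437 on the minus strand, and Ifi202b at chr1:173982795-173983094 on the minus strand. Each reads 5′ to 3′ on the strand of its gene, with capitals marking matches on either strand to an ISRE-like motif (GAAA, any 2 bases, GAAA) or a GAS-like motif (TTCNNNGAA).
Ifi205: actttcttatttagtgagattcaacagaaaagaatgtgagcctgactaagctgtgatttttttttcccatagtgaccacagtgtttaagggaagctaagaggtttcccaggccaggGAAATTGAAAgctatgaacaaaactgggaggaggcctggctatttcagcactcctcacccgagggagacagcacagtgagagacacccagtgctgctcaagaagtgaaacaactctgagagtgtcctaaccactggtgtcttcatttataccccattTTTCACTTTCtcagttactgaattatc
Ifi208: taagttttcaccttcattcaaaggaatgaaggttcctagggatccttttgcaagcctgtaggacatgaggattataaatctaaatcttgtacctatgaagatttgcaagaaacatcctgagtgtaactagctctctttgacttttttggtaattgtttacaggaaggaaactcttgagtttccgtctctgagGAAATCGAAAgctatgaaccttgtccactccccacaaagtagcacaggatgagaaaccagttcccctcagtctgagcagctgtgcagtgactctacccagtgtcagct
Ifi213: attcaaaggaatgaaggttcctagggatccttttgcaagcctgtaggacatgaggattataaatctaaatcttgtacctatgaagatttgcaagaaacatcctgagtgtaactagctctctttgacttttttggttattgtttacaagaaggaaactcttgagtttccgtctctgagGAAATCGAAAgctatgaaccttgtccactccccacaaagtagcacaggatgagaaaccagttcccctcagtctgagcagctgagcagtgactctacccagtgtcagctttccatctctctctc
Mndal: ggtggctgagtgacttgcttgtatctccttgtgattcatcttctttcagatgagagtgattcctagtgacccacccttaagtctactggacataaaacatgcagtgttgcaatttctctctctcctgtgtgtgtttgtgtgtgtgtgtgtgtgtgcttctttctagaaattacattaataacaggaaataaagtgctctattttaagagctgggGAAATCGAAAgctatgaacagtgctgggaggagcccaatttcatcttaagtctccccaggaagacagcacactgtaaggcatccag
Ifi202b: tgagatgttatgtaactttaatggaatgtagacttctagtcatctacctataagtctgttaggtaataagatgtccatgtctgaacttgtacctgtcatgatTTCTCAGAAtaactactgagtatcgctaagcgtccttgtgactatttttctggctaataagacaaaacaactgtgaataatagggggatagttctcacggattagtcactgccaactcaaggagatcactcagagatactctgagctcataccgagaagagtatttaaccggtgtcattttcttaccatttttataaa

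An ISRE-like match stood in the windows of Ifi205, Ifi208, Ifi213 and Mndal, whereas 3.44% of the 32851 promoter windows of the same length held one. In Ifi208, Ifi213 and Mndal it was the same decamer, GAAATCGAAA, on the gene's own strand. It lay from base -58 to base -49 relative to the annotated start of Ifi208, from -73 to -64 in Ifi213 and from -36 to -27 in Mndal. Ifi205 had GAAATTGAAA from -134 to -125 and a second match, GAAAGTGAAA, on the opposite strand from base 24 to base 33. The second Mndal window held GAAAGAGAAA on the opposite strand. Reading the windows showed that the same 9 bases follow the match in all 4 genes, so the longer form, the motif followed by GCTATGAAC, was also searched on both strands. It occurred in 7 of the 32851 windows (0.0213%), each belonging to a different Ifi200 gene: these 4 together with Ifi203, Ifi206 and Ifi211. The shared element was therefore not particular to the genes listed here. Of 7 Ifi200 genes with a window that are not among the listed 5, 5 held an ISRE-like match, as did all 5 such Gbp genes.

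The windows of Ifi208 and Ifi213 were nearly copies of each other, with 282 of 285 bases identical (98.9%) at a shift of 15 bases. Between any other pair of the 5 windows the ungapped identity was 28.1% to 37.3%, each at the shift with the most identical bases. That shift need not give the highest share of identical bases. It can also miss shorter related stretches, such as the one around the shared element. The Ifi202b window held no ISRE-like match. It held the palindrome-like GAS-like match TTCTCAGAA from -148 to -140, which matches the motif on both strands, and 8.30% of all windows held a GAS-like match. A PPAR response element of the DR1 form (AGGTCA, any base, AGGTCA, on either strand) was found in none of the 5 genes' windows and in 0.0396% of all windows. These matches are descriptions of the reference sequence, and no binding was measured. The reference was not compared with the sequence of the Kunming mice used here, which may differ from it at any of these genes. That Ifi202b lacks the shared element is therefore a statement about the reference window, and not about the livers in which Ifi202b was read.

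**Figure D1:**
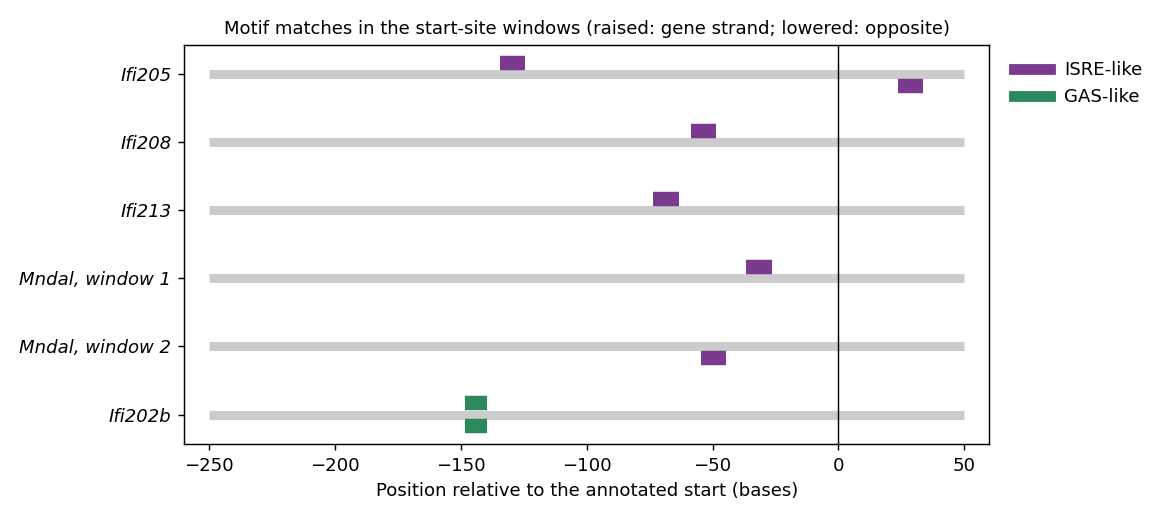
Motif matches in the RefSeq start-site windows of 5 Ifi200 genes, plotted against the distance in bases from the annotated start (GRCm38.p6). Bars raised above a line lie on the gene's strand and bars below it on the opposite strand; Ifi205, Ifi208, Ifi213 and Mndal carry ISRE-like matches, and Ifi202b a GAS-like match alone.

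All 6 libraries were of similar depth, with 21200000 to 26700000 reads as worked out from the smallest CPM steps, so that 1 read was worth 0.0375 to 0.0471 CPM and 3 reads, the limit that a count of 0 allows, lay at 0.112 to 0.141 CPM. These limits cover counting error only. The worth of 1 read was fitted over the low values of each library. Starting instead from a library's smallest value gave the same worth within 0.0132% in 5 libraries, from 89 and 90 values in vehicle replicates 2 and 1, but not in vehicle replicate 3. There the smallest value, 0.0870 CPM, stood for 2 reads by the fit, and the alternative left only 27.8% of 158 values whole, so read counts of vehicle replicate 3 and its limit of 0.130 CPM rest on the fit alone. The sample titles and the table's columns carry the name of the human line PANC1, with OE for the gigantol livers and Vector for the vehicle livers, while the organism, tissue and treatment labels and the gene IDs are mouse; groups follow the treatment label. None of the 10 hepatocyte markers looked for is among the 332 genes, so the liver label was not checked against them.

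The 2 Gbp genes had the largest relative differences in mean CPM of the 6 genes with a level above 0 in every liver. Gbp11 and Gbp8 fell by 70.3% and 63.7% in mean CPM in the gigantol livers, with FDRs below 0.05 by the authors' deposited table. They were the only 2 of the 7 genes below it, where 15.7% of the 332 listed genes were below it with a lower level, 25.9% in either direction, and 0.925% of all 13192 genes that the authors adjusted over in either direction. Since the list was selected on this comparison, nothing is read from that share. In bulk tissue a lower level from fewer cells of a type cannot be told apart from less RNA per cell, here and for every gene below.

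Gbp11 (ENSMUSG00000092021) read 6.44, 5.83 and 5.68 CPM in vehicle replicates 1, 2 and 3 and 1.65, 2.30 and 1.38 CPM in gigantol replicates 1, 2 and 3. The groups were far apart: the lowest vehicle liver was 2.47 times the highest gigantol liver. The means were 5.98 ± 0.403 CPM for vehicle and 1.78 ± 0.472 CPM for gigantol (SD, n = 3 each). By the authors' deposited table its log2 fold change was −1.75 and its FDR 1.29e-06. Between 34 and 172 reads stood behind each value. GENCODE M21 annotates Gbp11 as a polymorphic pseudogene and RefSeq as a transcribed pseudogene, so the reads show transcription of the locus and not that a protein is made. The table places it on chromosome 5 from 105470908 to 105494338, minus strand.

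Gbp8 (ENSMUSG00000034438), a protein-coding member of the same family, read 4.57, 3.83 and 2.99 CPM in the vehicle livers and 1.32, 1.64 and 1.18 CPM in the gigantol livers, each in the order of replicates 1, 2 and 3. No gigantol liver reached the lowest vehicle liver, vehicle replicate 3. The vehicle mean was 3.80 ± 0.789 CPM and the gigantol mean 1.38 ± 0.238 CPM (SD, n = 3 each). By the authors' deposited table its log2 fold change was −1.46 and its FDR 0.00187. With any 1 liver left out, the ratio of the gigantol to the vehicle mean stayed between 0.329 and 0.404 for Gbp8 and between 0.253 and 0.330 for Gbp11. Gbp8 lies on chromosome 5 from 105162016 to 105287406, minus strand, 184 kb from Gbp11, and no other listed gene lies between them.

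Within each group both Gbp genes had the same order of livers. Vehicle replicate 1 was the highest and vehicle replicate 3 the lowest of the vehicle livers for both, and gigantol replicate 2 the highest and gigantol replicate 3 the lowest of the gigantol livers. Their summed level was 11.01, 9.66 and 8.67 CPM in vehicle and 2.97, 3.94 and 2.56 CPM in gigantol replicates 1, 2 and 3. The transcripts of the 2 genes overlap in sequence: of the 50-base windows in the GENCODE M21 transcripts of Gbp11, 9.57% also occur in Gbp8 and 19.2% in some other gene, chiefly Gbp8, Gbp4 and Gbp6. For Gbp8, 7.37% occur in Gbp11 and 18.1% in some other gene. Reads from those stretches could have been split between copies by the authors' counting, which is not described in the sources used here. The other 9 Gbp genes looked for, among them Gbp2, Gbp4 and Gbp6, were not analysed here.

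**Figure D2:**
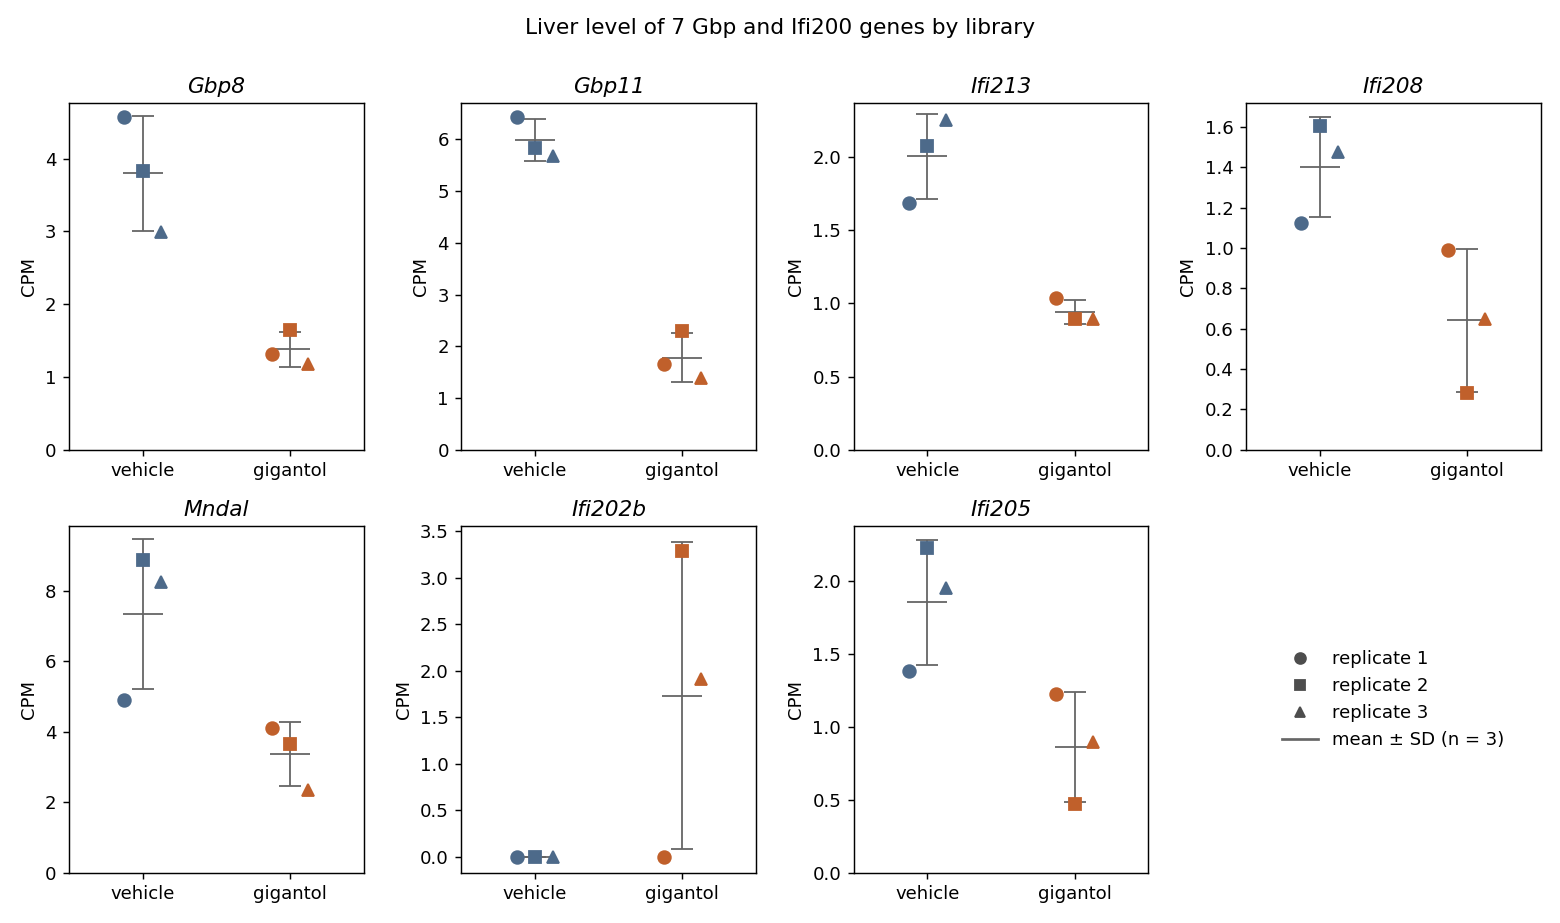
CPM of each of the 7 genes in each liver (points, shaped by replicate), with the mean and SD of 3 livers per group. The groups do not overlap for Gbp8, Gbp11, Ifi205, Ifi208, Ifi213 and Mndal, as for 72.0% of all 332 listed genes. Ifi202b is at 0 in all 3 vehicle livers and in gigantol replicate 1.

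Of the Ifi200 genes, Ifi205, Ifi208, Ifi213 and Mndal had lower levels in the gigantol livers, by 53.1% to 54.3% in mean CPM, and none of them had an FDR below 0.05 by the authors' deposited table. Each gene's gigantol livers all lay below its vehicle livers, which together with the Gbp genes makes 6 of the 7 genes, against 72.0% of all 332 listed genes whose groups do not overlap and 48.5% with every gigantol liver below every vehicle liver. Nothing is read from those counts, as the rows were selected on the same livers. The distances between the groups were small for 3 of these 4: the lowest vehicle liver was 1.13, 1.14 and 1.20 times the highest gigantol liver for Ifi205, Ifi208 and Mndal, and 1.63 times for Ifi213.

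Mndal (ENSMUSG00000090272), a pyrin and HIN domain protein of the nucleus, read 4.91, 8.88 and 8.24 CPM in vehicle and 4.10, 3.66 and 2.36 CPM in gigantol replicates 1, 2 and 3. Vehicle replicate 1 stood close to the gigantol livers and apart from the other vehicle livers. The means were 7.34 ± 2.13 and 3.37 ± 0.904 CPM (SD, n = 3 each), and the authors' deposited table gave it a log2 fold change of −1.12 with FDR 0.0908. With 58 to 227 reads per liver it was the most deeply read of the 4.

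Ifi213 (ENSMUSG00000073491), also named Pydc4 in RefSeq, read 1.69, 2.07 and 2.25 CPM in vehicle and 1.04, 0.892 and 0.894 CPM in gigantol replicates 1, 2 and 3. The gigantol livers were nearly level, with the highest 1.16 times the lowest. The means were 2.00 ± 0.291 and 0.941 ± 0.0826 CPM (SD, n = 3 each), from 19 to 53 reads per liver. The authors' deposited table gave it a log2 fold change of −1.09 with FDR 0.165.

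Ifi205 (ENSMUSG00000054203), first described as an interferon-induced transcript of macrophages, read 1.39, 2.23 and 1.95 CPM in vehicle and 1.22, 0.469 and 0.894 CPM in gigantol replicates 1, 2 and 3. Ifi208 (ENSMUSG00000066677), a pyrin domain member also named Pydc3 in RefSeq, read 1.12, 1.60 and 1.47 CPM in vehicle and 0.989, 0.282 and 0.650 CPM in gigantol replicates 1, 2 and 3. Both genes were lowest in gigantol replicate 2 and, among gigantol livers, highest in gigantol replicate 1, which came close to vehicle replicate 1. The means were 1.86 ± 0.430 against 0.862 ± 0.378 CPM for Ifi205 and 1.40 ± 0.248 against 0.640 ± 0.354 CPM for Ifi208 (SD, n = 3 each, vehicle first). Log2 fold changes in the authors' deposited table were −1.10 and −1.12, with FDRs of 0.412 and 0.534. These values rest on few reads, 10 to 57 for Ifi205 and 6 to 41 for Ifi208.

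The same livers stood nearest to the other group for all 4 of these Ifi200 genes. Vehicle replicate 1 was the lowest vehicle liver for all 4 and gigantol replicate 1 the highest gigantol liver for all 4, whereas vehicle replicate 1 was the highest vehicle liver for both Gbp genes. Their summed level was 9.10, 14.8 and 13.9 CPM in vehicle and 7.35, 5.30 and 4.80 CPM in gigantol replicates 1, 2 and 3. With any 1 liver left out, the ratio of the gigantol to the vehicle mean ran from 0.367 to 0.571 for Ifi205, from 0.333 to 0.585 for Ifi208, from 0.435 to 0.501 for Ifi213 and from 0.394 to 0.528 for Mndal. The ratio was highest without gigantol replicate 2 for Ifi205 and Ifi208, and without gigantol replicate 3 for Mndal.

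Likeness of pattern was measured as the root mean square difference between profiles of log2(CPM + 1) over the 6 livers, each profile less its own mean. Low genes move little on this scale, which brings their profiles nearer to each other. By this measure Ifi205 and Ifi208 were the closest pair of the 7 genes, 0.0524 apart, and they share no 50-base window of transcript sequence. Ifi208 and Ifi213, which share 951 windows (18.1% of those of Ifi208 and 13.6% of those of Ifi213), were 0.165 apart. Ifi205 shares 6.28% of its windows with Mndal and 18.5% with Ifi211, a family gene not analysed here. Gbp8 and Gbp11 were 0.204 apart.

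**Figure D3:**
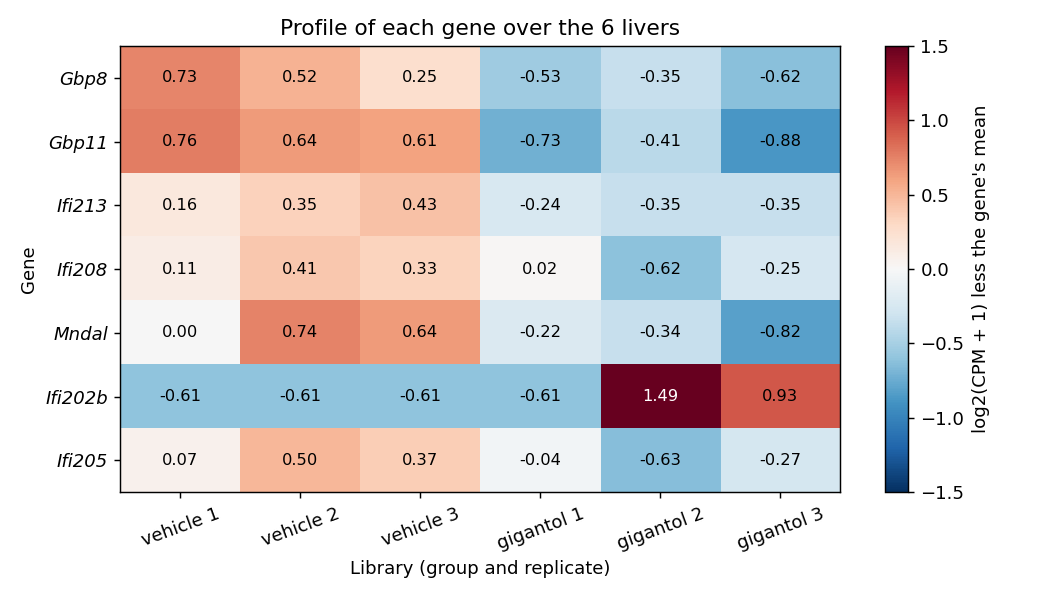
Level of each gene in each liver as log2(CPM + 1) less the gene's mean over the 6 livers (colour and number; columns are livers, rows are genes). The Gbp rows are highest in vehicle replicate 1, the Ifi205, Ifi208, Ifi213 and Mndal rows are highest in vehicle replicate 2 or 3, and the Ifi202b row stands out in gigantol replicates 2 and 3 alone.

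Ifi202b had a different pattern from the other 6 genes. It encodes p202, which has HIN domains but no pyrin domain and is known to restrain Aim2 inflammasomes, and its level is known to differ widely between inbred mouse strains. Ifi202b (ENSMUSG00000026535) was listed at 0 in all 3 vehicle livers and in gigantol replicate 1, and read 3.29 CPM in gigantol replicate 2 and 1.91 CPM in gigantol replicate 3. It was thus seen in 2 of 3 gigantol livers, with 70 and 47 reads, and in none of the vehicle livers, and the groups overlap at 0. Set against 3 reads in the vehicle library with the highest such limit (vehicle replicate 3, 0.130 CPM by the fitted worth of 1 read), gigantol replicates 2 and 3 were at least 25.3-fold and at least 14.7-fold higher. Within the gigantol group, against 3 reads in gigantol replicate 1, the same livers were at least 23.3-fold and at least 13.5-fold higher. All these folds are lower limits set by library depth, so they do not show which difference was larger.

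The authors' deposited table gave Ifi202b a log2 fold change of 7.88, a p of 0.0437 and an FDR of 0.601. A fold change against a group at 0 depends on how 0 was handled, so that value is no measure of size. None of the 1648 windows of 50 bases in its GENCODE M21 transcript occurs in another gene, which differs from the 15.6% to 20.8% of the other 6 genes. Gigantol replicate 2, with the highest Ifi202b level, had the lowest levels of Ifi205 and Ifi208 among all 6 livers, while Ifi213 was nearly level between gigantol replicates 2 and 3. The other genes differed: gigantol replicate 2 was the highest gigantol liver for Gbp8 and Gbp11. Mndal was lowest in gigantol replicate 3, at 2.36 CPM against 3.66 CPM in gigantol replicate 2. A relation between these levels was not tested.

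On chromosome 1 the 5 Ifi200 genes lie within 466 kb, by the table's coordinates, whose mouse build the sources do not name. Their order is Ifi213 (173393849 to 173426840), Ifi208 (173501241 to 173525961), Mndal (173676692 to 173708447), Ifi202b (173790134 to 173810310) and Ifi205 (173839564 to 173859376), with Ifi208 on the plus strand and the others on the minus strand. No other listed gene lies in that interval. Among the listed genes Ifi202b thus sits between 2 with lower levels in the gigantol livers, 81.7 kb from Mndal and 29.3 kb from Ifi205. By the GRCm38.p6 windows, the starts of Ifi203 and Ifi211 lie between those of Mndal and Ifi202b, so Mndal is not its direct neighbour. Of the Ifi200 family list, 9 further genes, including Aim2, Ifi203, Ifi204 and Ifi211, were not analysed here.

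**Figure D4:**
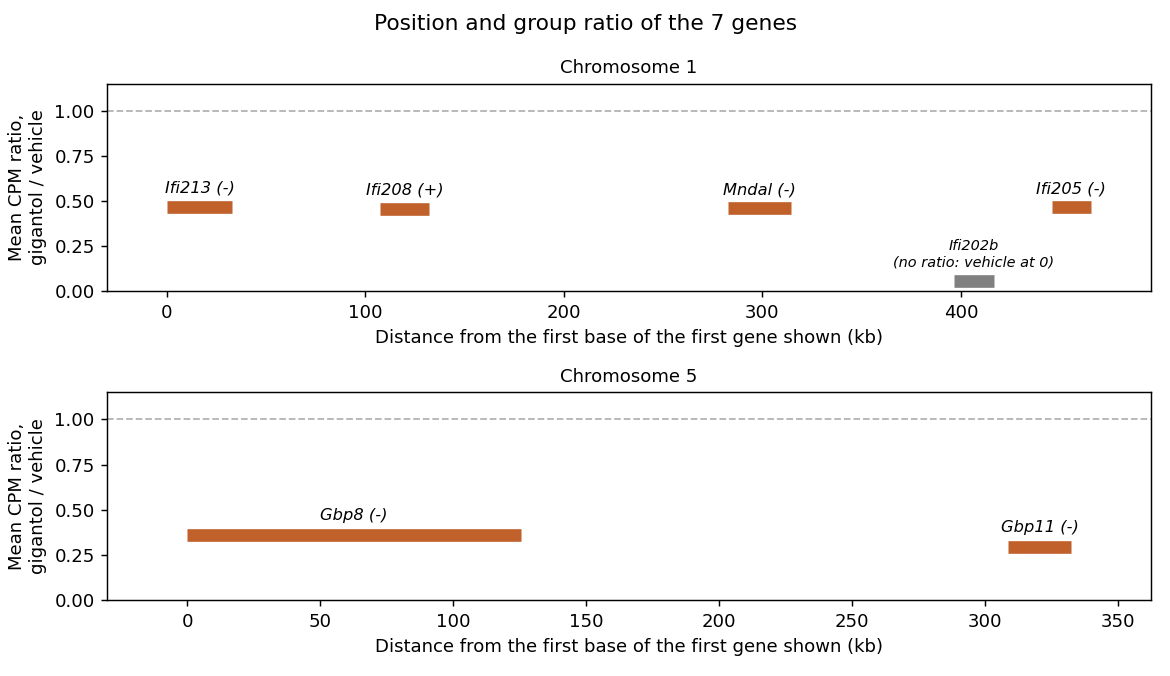
Ratio of mean CPM, gigantol over vehicle, against position in kb from the start of the first gene shown on chromosomes 1 and 5 (bars span each gene; strand in brackets; dashed line at 1). The 4 Ifi200 genes with a ratio lie between 0.457 and 0.469, the Gbp genes at 0.297 and 0.363, and Ifi202b is drawn without a ratio since its vehicle level was 0.

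Levels were also set side by side per kilobase of exon (GENCODE M21, GRCm38 models). In the vehicle livers the order was Gbp11 at 2.22 ± 0.150, Mndal at 2.02 ± 0.588, Gbp8 at 1.10 ± 0.229, Ifi205 at 0.444 ± 0.103, Ifi213 at 0.293 ± 0.0426 and Ifi208 at 0.266 ± 0.0472 CPM per kb (SD, n = 3), with Ifi202b at 0. Gbp11 and Mndal overlapped in this order, as did Ifi213 and Ifi208, whereas the other neighbours did not. In the gigantol livers Mndal was at 0.929 ± 0.249, Gbp11 at 0.660 ± 0.175, Gbp8 at 0.401 ± 0.0692, Ifi205 at 0.206 ± 0.0906, Ifi213 at 0.138 ± 0.0121 and Ifi208 at 0.122 ± 0.0672 CPM per kb (SD, n = 3). The span of Mndal is 93366 bp in that annotation and 31756 bp in the table, so its length may differ from the one the authors counted over.

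A limma fit on log2(CPM + 1) of the 201 listed genes with at least 1 CPM in 3 livers gave changes of −1.34 ± 0.341 (SE) for Gbp11, −1.003 ± 0.315 for Gbp8, −0.92 ± 0.383 for Mndal, −0.63 ± 0.235 for Ifi213, −0.63 ± 0.247 for Ifi205 and −0.57 ± 0.209 for Ifi208. Their median was −0.77 and that of all 201 genes −0.72. Ifi202b did not pass the filter, and Ifi208 passed it with no gigantol liver at 1 CPM. By limma 5 of these 6 (Mndal not among them) had an adjusted p under 0.05 within the table, as had 55.2% of the genes tested in either direction and 35.3% with a lower level. That count was 3, 3 and 1 without gigantol replicates 1, 2 and 3, and 6, Mndal included, without vehicle replicate 1. It was 0 without vehicle replicate 2 (2 at an unadjusted p under 0.05) and 1 without vehicle replicate 3. Adjusted as if over the 13192 genes that the authors adjusted over, limma passed 0 of the 6, all 6 of which had an unadjusted p under 0.05. Since limma was fitted to the 201 listed genes alone, this adjustment ranks every other gene behind them, which was not checked.

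Outside the 2 families the listed genes held few others of the interferon pathway. The 6 lists searched were immunity-related GTPases, interferon ligands and receptors, JAK-STAT-IRF signalling, interferon-stimulated genes, antigen presentation, and cytosolic DNA sensing with the inflammasome. Of their 153 genes, 3 were among the 332. All 3 had lower levels in the gigantol livers, as had 213 of the 332, and nothing is read from that direction. None of the 3 was below an FDR of 0.05 by the authors' deposited table. The other 150, including the ligands, the receptors, Irf7, Isg15, Ifit1 and Mx1, were not analysed here, and the presence of a gene on the list required a log2 fold change of 1.00 or more in either direction.

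The 3 were Phf11b, H2-Q7 and Pycard. Phf11b, a PHD finger gene induced by interferon, read 1.20, 0.743 and 1.04 CPM in vehicle and 0.565, 0.469 and 0.366 CPM in gigantol replicates 1, 2 and 3. H2-Q7, a nonclassical class I histocompatibility gene, read 43.7, 18.6 and 20.1 CPM in vehicle and 14.8, 16.1 and 7.28 CPM in gigantol replicates 1, 2 and 3. Vehicle replicate 1 was the highest liver for both, as it was for the Gbp genes. Pycard, which encodes the inflammasome adaptor ASC that binds pyrin domains, read 0.599, 0.899 and 1.04 CPM in vehicle and 0.235, 0.282 and 0.488 CPM in gigantol replicates 1, 2 and 3. For Pycard vehicle replicate 1 was the lowest vehicle liver, as it was for the Ifi200 genes other than Ifi202b. By the authors' deposited table the FDR was 0.546 for Phf11b, 0.285 for H2-Q7 and 0.494 for Pycard.

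Listed markers of immune cells, in which these families are expressed, also had lower levels in the gigantol livers. Of 17 T and NK cell markers 3 were listed, Nkg7, Cd8a and Ccl5, and their summed level was 2.43 to 3.32 CPM in vehicle and 1.08 to 1.46 CPM in gigantol livers. Of 10 B and plasma cell markers Cd79a was listed, at 0.347 to 0.749 CPM in vehicle and 0.141 to 0.282 CPM in gigantol livers. Of 14 Kupffer cell and macrophage markers Marco, a scavenger receptor, was listed, at 8.21 to 8.89 CPM in vehicle and 1.55 to 3.71 CPM in gigantol livers. None of these 5 genes was at 0 in any liver, and the groups did not overlap for any of them. Of all 332 listed genes, 72.0% had groups that do not overlap and 48.5% had every gigantol liver below every vehicle liver. Nothing is read from the count, as the rows were selected on the same livers. Itgal, a leukocyte gene in none of these lists, went the other way, with a log2 fold change of 1.45 in the authors' deposited table.

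Marco fell, with FDR 0.000107 by the authors' deposited table, where the FDRs of Nkg7, Cd8a, Ccl5 and Cd79a were 0.340, 0.448, 0.457 and 0.576. The remaining markers of these lists, and all of the monocyte and neutrophil, dendritic cell and liver endothelial cell lists, were not analysed here. The part of these cells in the lower Gbp and Ifi200 levels was not tested.

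**Figure D5:**
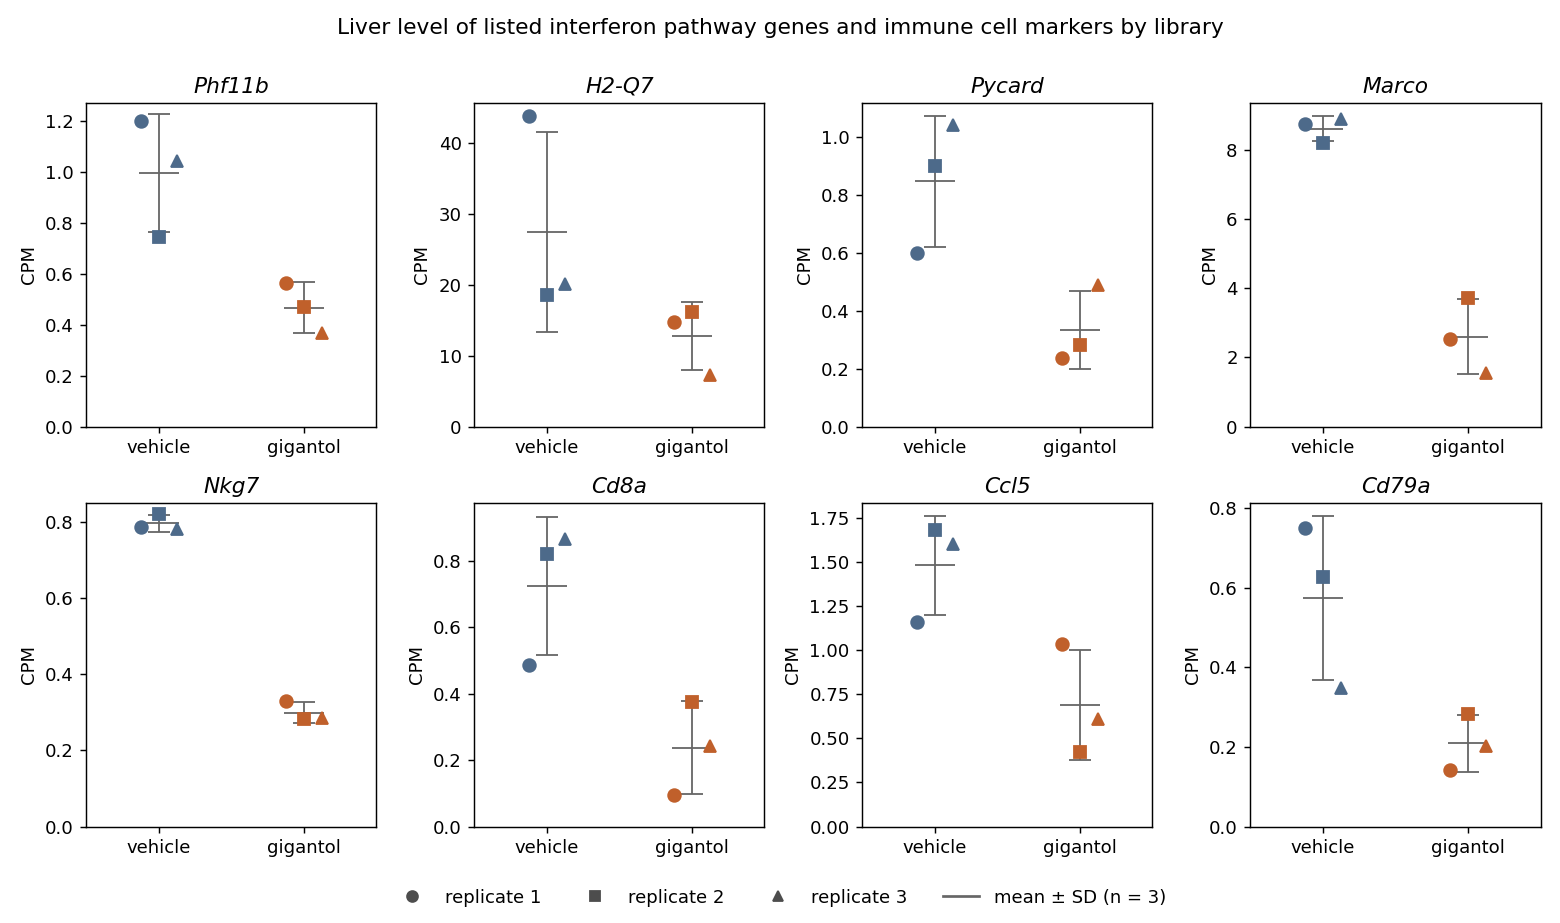
CPM in each liver of the 3 listed interferon pathway genes (Phf11b, H2-Q7, Pycard) and of 5 listed immune cell markers (Marco, Nkg7, Cd8a, Ccl5, Cd79a), points shaped by replicate with the mean and SD of 3 livers per group. All 8 genes are lower in every gigantol liver than in any vehicle liver, as are 48.5% of all 332 listed genes.

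The listed genes nearest in pattern to each of the 7 were sought among 285 genes outside them with a mean of at least 0.5 CPM. Ccl5, a chemokine of T and NK cells, was the nearest to both Ifi208 (0.0558) and Ifi205 (0.0724), and it read 1.16, 1.68 and 1.61 CPM in vehicle and 1.04, 0.422 and 0.610 CPM in gigantol replicates 1, 2 and 3. Like both genes it was lowest in gigantol replicate 2 and nearly level between gigantol replicate 1 and vehicle replicate 1. Nearest to Ifi213 were Pdlim4, a PDZ and LIM domain gene (0.0618), and Il15, a cytokine that sustains NK cells (0.0860). Pdlim4 was low, at 0.637 to 1.02 CPM in vehicle and 0.081 to 0.235 CPM in gigantol livers. Its log2 fold change in the authors' deposited table was −2.50, against −1.09 for Ifi213 and −1.15 for Il15. On this scale low levels thus bring genes with unlike fold changes near each other.

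For the Gbp genes the nearest was Sgk1, a serum and glucocorticoid regulated kinase, at 0.130 from Gbp8 and 0.143 from Gbp11. Next came Dct, a melanin pathway enzyme, for Gbp8 (0.167) and Marco for Gbp11 (0.150). Mndal was nearest to Akr1b8, an aldo-keto reductase (0.177), and to the predicted gene Gm47248 (0.213). Gm47248 was at 0 in gigantol replicates 1 and 3. Its log2 fold change in the authors' deposited table was −3.13, against −1.12 for Mndal and −1.28 for Akr1b8. Nearest to Ifi202b were Itgal, the alpha chain of the leukocyte integrin LFA-1 (0.186), and Hamp, which encodes hepcidin (0.338). Itgal read 8.76, 7.43 and 5.38 CPM in vehicle and 6.83, 31.3 and 20.9 CPM in gigantol replicates 1, 2 and 3. As for Ifi202b, gigantol replicates 2 and 3 were high and gigantol replicate 1 lay with the vehicle livers. Itgal lies on chromosome 7, away from the Ifi200 cluster.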

How the data were processed

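Liver RNA of 6 mice, 1 library per mouse, was sequenced after ribosomal RNA depletion as stranded libraries, per the labels' protocols. The submitters' processing notes name HISAT2, fastp and DESeq2 1.16.1 without their roles, and a human build although all gene IDs are mouse. For the counter and annotation, nothing is given in the sources used here. The deposited CPM values were read as such from the values, since the header names no unit: low values were whole multiples of 1 step per library (all values up to 200 reads within 0.1 reads). The log2 fold changes, p-values and FDRs were deposited by the authors, per the file headers; the ratio of FDR to p gives 13192 genes adjusted over. The table was selected on this comparison. limma 3.58.1 in R 4.3.3 (trended, robust, two-sided, Benjamini-Hochberg, 0.05) was fitted to log2(CPM + 1) of all listed genes with at least 1 CPM in 3 libraries, and tested on simulated data. "Fell" refers to an FDR under 0.05 in the authors' deposited table. Members and lists were chosen with earlier results of these data known. Named were the 7 members, every listed gene of the interferon and immune lists, and the 2 genes nearest in pattern to each member, except the second nearest to Ifi205 and Ifi208, which is not reported here. Animals are separate, with no pairing in the labels. Alternatives were other pseudocounts, filters, moderation, a replicate block, each library left out and, added after seeing the data, adjustment over 13192 genes. That last adjustment ranked all genes outside the fit behind those in it.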

Additional observations from a re-analysis of the deposited data

How the results depend on the processing

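The 6 genes that limma tested had a negative log2 change in all 78 runs over the alternatives. That sign was fixed in advance, since the groups do not overlap for any of the 6, and nothing is read from it. In 46 of the runs they kept their side of the 0.05 threshold, and 12 of these were runs in which Mndal stayed above it. With all livers, limma had 5 of the 6 past the threshold and 111 of 201 listed genes. The 5 went to 2 at a pseudocount of 0.1 CPM, to 3 with no filter, to 2 without trend and robust moderation, to between 0 and 6 with 1 liver left out and to 0 adjusted over all 13192 genes; Gbp8 and Gbp11 were the 2 that passed in both runs with 2. The 111 went to 169 with no filter, to 176 with a filter of 0.5 CPM, to between 32 and 136 with 1 liver left out and to 9 adjusted over 13192 genes. More genes were tested with no filter and with the lower filter, and fewer livers entered the leave-one-out runs; the other causes were not tested. The replicate block gave 5 of the 6 and 128 listed genes. Same-numbered livers were not shown to be paired: their deviations from the group means correlated over 201 genes at 0.13, 0.15 and −0.10. At an FDR under 0.1, 3 of the 7 passed in the authors' deposited table in place of 2. The planned count tests on reads worked out from the CPM steps were not run, since the step was not recovered from the smallest values upwards in vehicle replicate 3 and rested on under 100 values in vehicle replicates 1 and 2. Depth limits Ifi205 and Ifi208 most, with as few as 10 and 6 reads in a liver.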

Other observations

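The authors' deposited table annotates 16 of its genes to interferon in their names or gene ontology terms. They are the 7 described above and 9 others, H2-Q7, Ccl5 and Pycard among them. Of the 9, 8 had lower levels and 1 a higher level in the gigantol livers. Lower levels were also found for 213 of all 332 listed genes, and nothing is read from the count. None of the 9 had an FDR below 0.05 in the authors' deposited table. The 4 genes given here were picked after their values were seen. Ubd, an interferon-inducible ubiquitin-like modifier in none of the lists, read 0.936, 0.743 and 0.737 CPM in vehicle and 0.330, 0.469 and 0.163 CPM in gigantol replicates 1, 2 and 3. Clec7a, the beta-glucan receptor dectin-1 of myeloid cells, read 11.2, 8.53 and 6.20 CPM in vehicle and 5.41, 2.58 and 4.84 CPM in gigantol replicates 1, 2 and 3. Cd226, an activating receptor of NK and T cells, read 1.39, 1.53 and 0.911 CPM in vehicle and 0.659, 0.329 and 0.610 CPM in gigantol replicates 1, 2 and 3. Bcl3, an atypical inhibitor of NF-kappa-B, was the gene with a higher level, at 5.84, 10.2 and 12.3 CPM in vehicle and 14.3, 14.8 and 30.6 CPM in gigantol replicates 1, 2 and 3. For each of these 4 genes the groups did not overlap, as for 72.0% of all 332 listed genes.

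The erythroid and the stellate cell lists held genes with lower levels in the gigantol livers, the direction of 213 of all 332 listed genes. Of 8 erythroid markers 6 were listed, with a summed level of 554 to 1913 CPM in vehicle and 349 to 633 CPM in gigantol livers, and 1 of them, Hba-a2, was below an FDR of 0.05 by the authors' deposited table. Of 11 stellate cell and cholangiocyte markers Lrat and Des were listed, with a summed level of 13.1 to 24.5 CPM in vehicle and 6.81 to 11.9 CPM in gigantol livers. Their part in the Gbp and Ifi200 levels was not tested.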
